A study of Mus musculus with 384 samples.

Results

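Primitive streak and endoderm transcription factors were measured in single mouse pluripotent stem cells: T, Mixl1, Evx1, Mesp1, Tbx6, Foxa2, Gsc, Sox17 and Gata6, with Cer1, a secreted antagonist of the anterior endoderm. They were taken by symbol from the table of raw counts, and 8 of the 10 genes had a row among 31617 genes. Evx1 and Cer1 had no row in that table, which lists genes with at least 1 count in some cell, and were not analysed here. Cells came from 4 lines: 5ar1 and 5ar2 are formative stem (FS) cell lines, and AFX6 and AF32 are epiblast-derived stem cell (EpiSC) lines. FS cells were kept in AloXR, with 3 ng/ml activin, the tankyrase inhibitor XAV939, which lowers Wnt signalling, and an inverse agonist of retinoic acid receptors. AFX medium, used for AFX6, contained 20 ng/ml activin, Fgf2 and XAV939. The AF medium of AF32 differed from AFX by lacking XAV939. AF and AFX were thus represented by 1 line each, and line and medium cannot be told apart. Cells were sorted 1 per well and sequenced with Smart-seq2, which copies full-length mRNA and carries no molecular identifiers. Of 384 cells, 326 had at least 3000000 counts and were kept: 90 of 5ar1, 90 of 5ar2, 66 of AFX6 and 80 of AF32, with 3022666 to 6686007 counts each. The label of pluripotent cells was checked with Pou5f1, which reached 50 CPM in 88, 89, 65 and 77 of these cells (CPM, counts of a gene per 1000000 counts of the cell).

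In the gastrulating embryo, epiblast cells that receive Nodal and Wnt signals pass through the primitive streak and become mesoderm or definitive endoderm. T (Brachyury) and Mixl1 mark the streak, Mesp1 and Tbx6 nascent and paraxial mesoderm, Foxa2 and Gsc its anterior end, and Sox17 and Gata6 the endoderm. T persists in the notochord, where Foxa2 is also expressed. EpiSCs are known for expression of such genes in part of the culture, and whether cells of each line expressed them, and whether the same cells expressed several, is the question addressed here.

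On GRCm38 the protein-coding genes lie at chr17:8434423-8442496 (T), chr1:180693043-180697034 (Mixl1), chr7:79792241-79793788 (Mesp1), chr7:126781483-126785560 (Tbx6), chr2:148042877-148046969 (Foxa2), chr12:104471209-104473330 (Gsc) and chr1:4490931-4497354 (Sox17). T, Tbx6 and Foxa2 were the factors with any kept cell at 50 CPM or more, and the 250 bases before their start sites are shown for that reason. The sequences are from RefSeq on GRCm38.p6, 5′ to 3′ on the strand of the gene, and 7 of the 10 genes matched an entry. The windows lie at chr17:8434173-8434422 (plus strand) for T, chr7:126781233-126781482 (plus strand) for Tbx6 and chr2:148046970-148047219 (minus strand) for Foxa2. Capitals mark matches to motifs searched on both strands. The searched letters were TCAAAG for the core read by TCF/LEF factors, TGTGNATT for the factor Foxh1, TCACACC for T-box factors and TATAAA for a TATA box.
T: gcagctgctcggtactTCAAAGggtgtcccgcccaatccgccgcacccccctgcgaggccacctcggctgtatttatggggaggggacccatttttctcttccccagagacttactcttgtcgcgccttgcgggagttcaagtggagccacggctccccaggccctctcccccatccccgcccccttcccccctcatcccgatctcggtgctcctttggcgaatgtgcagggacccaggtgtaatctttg
Tbx6: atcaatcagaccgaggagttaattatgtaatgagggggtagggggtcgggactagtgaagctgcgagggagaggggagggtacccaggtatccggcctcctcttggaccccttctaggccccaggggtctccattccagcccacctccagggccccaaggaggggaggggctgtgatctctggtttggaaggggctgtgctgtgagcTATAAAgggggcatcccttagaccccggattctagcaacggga
Foxa2: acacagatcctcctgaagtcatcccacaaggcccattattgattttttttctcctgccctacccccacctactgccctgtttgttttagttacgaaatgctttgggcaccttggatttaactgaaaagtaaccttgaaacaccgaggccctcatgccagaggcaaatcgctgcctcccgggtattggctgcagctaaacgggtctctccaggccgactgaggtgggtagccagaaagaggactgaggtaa
The window of Brachyury held 1 TCF/LEF core, and that of Tbx6 held 1 TATA box. No match was found in the Foxa2 window. Of 32851 windows of the same length, 13.8% held the TCF/LEF core, 3.18% the Foxh1 motif, 3.33% the T-box motif and 12.4% the TATA box. A match is a match of letters and was not tested as a binding site.

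Each factor was absent from most cells of every line, with a median of 0 CPM in each of the 4 lines for all 8 genes. At least 5 CPM of any of the 8 factors was found in 6 of 90 cells of 5ar1 (6.667%, exact 95% Clopper-Pearson interval 2.486 to 13.9%), in 12 of 90 cells of 5ar2 (13.3%, 7.08 to 22.1%) and in 8 of 66 cells of AFX6 (12.1%, 5.38 to 22.5%). In AF32 it was found in 26 of 80 cells (33%, 22.5 to 43.9%). The interval of AF32 overlaps that of AFX6 by less than 1 percentage point and lies above those of both FS lines. Intervals of this kind cover counting error within a line and not the spread between lines. At 50 CPM the share was 8 of 80 cells in AF32 (10.0%, 4.42 to 18.8%) and 1 of 90 cells in 5ar2 (1.111%, 0.0281 to 6.04%). No cell of 5ar1 or AFX6 reached it, which allows a share of up to 3.33% and 4.55%, taken as 3 cells of each line, with exact Clopper-Pearson upper bounds of 4.02% and 5.44%. AF32 cell 70, which is described with T, counts once in each of these AF32 numbers.

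**Figure D1:**
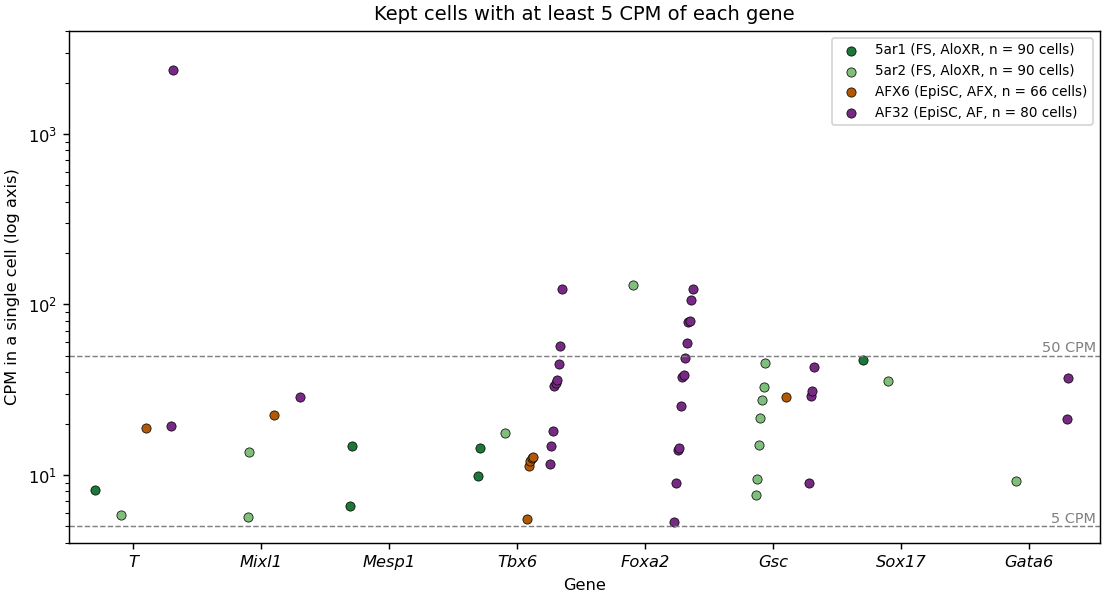
CPM (log axis) of each factor in every kept cell with at least 5 CPM of it, coloured by line; dashed lines mark 5 and 50 CPM. The T cell at 2369 CPM stands far above all other points, and AF32 holds 13 Foxa2 and 9 Tbx6 cells.

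**Figure D2:**
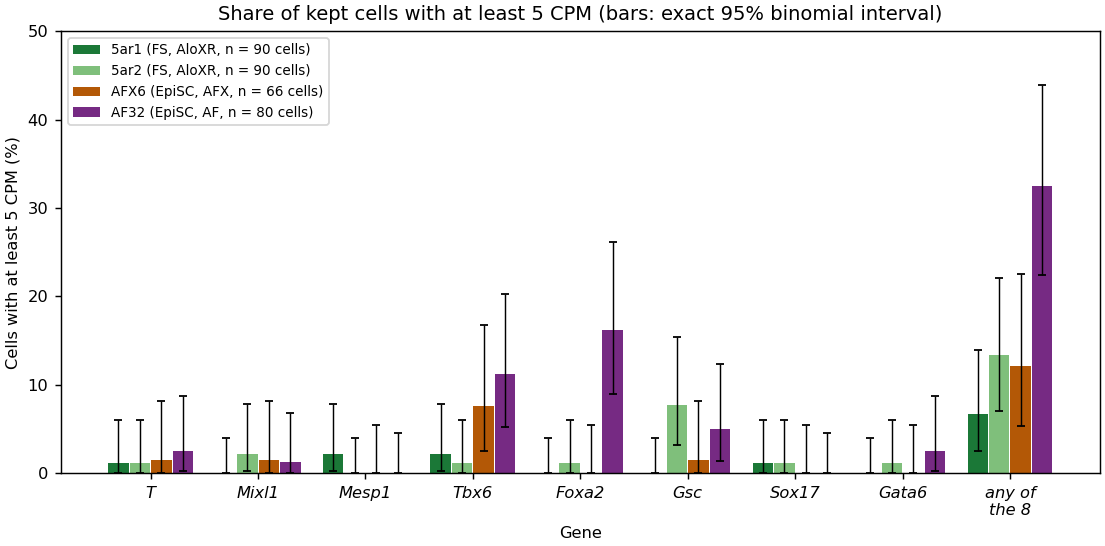
Percent of kept cells with at least 5 CPM of each factor, and of any of the 8, by line; error bars are exact 95% binomial intervals. The bar for any factor reaches 33% in AF32 and 6.667 to 13.3% in the other 3 lines.

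Foxa2, a forkhead factor of anterior streak, node and definitive endoderm, was the factor found in most AF32 cells. At least 5 CPM was present in 13 of 80 AF32 cells (16.3%, 8.95 to 26.2%), in 1 of 90 cells of 5ar2, and in none of 5ar1 or AFX6. The 5 highest AF32 cells had 123, 106, 79.5, 78.5 and 59.5 CPM, and the other 8 had 5.31 to 48.2 CPM. These cells form a graded series and not a separate high group. The 5ar2 cell, cell 21, had 131 CPM, the highest single value of Foxa2 in the data. Over the summed counts of a line, the level of Foxa2 was 7.92 CPM in AF32 (95% Poisson interval 7.63 to 8.21) and 1.693 CPM in 5ar2 (1.572 to 1.819). It was represented by 1 count in all of 5ar1 and by 2 counts in all of AFX6. Cell 21 carried 99.1% of the 5ar2 counts, and without it the level in 5ar2 was 0.0163 CPM. In AF32 the highest cell carried 17.4%, and the level without it was 6.614 CPM.

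T, the T-box factor that defines the streak, was high in 1 of the 326 cells. AF32 cell 70 held 13787 T counts, or 2369 CPM, and the next highest cells were AF32 cell 54 at 19.5 CPM and AFX6 cell 33 at 18.8 CPM. The summed T level was 0.144 CPM in 5ar1, 0.179 CPM in 5ar2, 0.382 CPM in AFX6 and 39.1 CPM in AF32. Cell 70 accounted for 99.1% of the AF32 counts, and the level in AF32 without it was 0.357 CPM. In AFX6, cell 33 held 81.9% of the T counts, and the level without it was 0.0703 CPM. At least 1 T count was seen in 36 cells, of which 3 were of 5ar1, 11 of 5ar2, 11 of AFX6 and 11 of AF32, and 5 of them reached 5 CPM. Traces of T were thus spread over all lines, and the 10 other AF32 cells with T shared 125 counts, 109 of them in cell 54.

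AF32 cell 70 also differed from the rest of its line in many other genes. It had 5819714 counts and 10238 detected genes, near the AF32 median of 10330.5 genes. Foxa2 was at 25.4 CPM in the cell, and Shh, the signal secreted by notochord and floor plate, at 848 CPM. In the other 325 cells Shh did not exceed 0.595 CPM. Besides Shh, 3 genes had at least 100 CPM in this cell and under 5 CPM in each of the others: Ntng1 (157 CPM), Atp6v1b1 (155 CPM) and 6030400A10Rik (100.3 CPM). Among genes chosen after their values were seen, Sox9, a factor of cartilage and notochord, was at 965 CPM, Lmx1a, known from the roof plate, at 319 CPM and the cartilage collagen gene Col2a1 at 214 CPM. Lmx1a did not exceed 11.2 CPM in any other cell, whereas Sox9 and Col2a1 reached 1769 and 955 CPM in others. The core pluripotency factors were low or undetected. Pou5f1 was at 1.9 CPM where the AF32 level was 533 CPM, and Nanog at 1.2 CPM where the line was at 399.9 CPM. Cell 70 was not the only such cell, since 78 of 80 AF32 cells reached 5 CPM of Pou5f1 and 76 of Nanog. Sox2 had no count in cell 70, but low Sox2 was usual in AF32. The median of the other 79 AF32 cells was 1.03 CPM of Sox2, and 33 of 80 cells reached 5 CPM. Dnmt3b (130 CPM) and Tdgf1 (151 CPM) were still counted. Among the other factors here, Tbx6, Mixl1 and Gsc had no count in the cell.

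Tbx6, a T-box factor of paraxial mesoderm, was found in several cells of both EpiSC lines. At least 5 CPM was present in 9 AF32 cells (11.3%, 5.28 to 20.3%), 5 AFX6 cells (7.58%, 2.506 to 16.8%), 2 cells of 5ar1 and 1 cell of 5ar2. The 5 AFX6 cells lay between 5.53 and 12.8 CPM, and the 9 AF32 cells had 123 (cell 49), 57.0 (cell 60), 44.8, 36.0, 34.4, 33.1, 18.2, 14.7 and 11.7 CPM. The intervals of the shares of the EpiSC lines overlapped, while 8 of the 9 AF32 cells exceeded the highest AFX6 cell. Summed levels were 0.344 CPM in 5ar1, 0.258 CPM in 5ar2, 0.878 CPM in AFX6 and 5.28 CPM in AF32, and 3.32 CPM in AF32 without cell 49. Both EpiSC lines lay above both FS lines in Tbx6 level, as for 21.5% of the genes tested.

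Mixl1, a homeobox factor of the streak, reached 5 CPM in 4 cells. They were 5ar2 cells 19 (13.7 CPM) and 44 (5.67 CPM), AFX6 cell 87 (22.4 CPM) and AF32 cell 83 (28.7 CPM). Its summed level was 0.0371 CPM in 5ar1, 0.219 CPM in 5ar2, 0.379 CPM in AFX6 and 0.326 CPM in AF32, and the intervals of the EpiSC lines overlapped (0.316 to 0.451 and 0.269 to 0.391 CPM). In each of the 4 lines at least 70.5% of the Mixl1 counts came from 1 cell. Mesp1, a factor of the first mesoderm, was seen in 2 cells of 5ar1, at 14.7 and 6.603 CPM, and had no count in any of the other 3 lines. A count of 0 over a line allows up to 0.00690 CPM in 5ar2, 0.00902 CPM in AFX6 and 0.00843 CPM in AF32.

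Gsc, a homeobox factor of the anterior streak and organizer, was found in one FS line and not in the other. At least 5 CPM was present in 7 of 90 cells of 5ar2 (7.78%, 3.18 to 15.4%), in 4 of 80 cells of AF32 (5.00%, 1.379 to 12.3%) and in 1 AFX6 cell, while 5ar1 had no count. The 7 cells of 5ar2 had 45.1, 33, 27.6, 21.7, 15.1, 9.50 and 7.63 CPM, and the 4 cells of AF32 had 42.9, 31.2, 28.9 and 9.00 CPM, so the ranges overlap. The AFX6 cell had 28.7 CPM. Its level was 1.759 CPM in 5ar2 (1.637 to 1.888), 1.464 CPM in AF32 (1.341 to 1.596) and 0.490 CPM in AFX6. The counting intervals of 5ar2 and AF32 did not overlap, but they treat each read as independent and leave out the spread between cells. Without the highest cell of each line the levels were 1.238, 0.920 and 0.00917 CPM. Gsc was therefore carried by several cells in 5ar2 and AF32 and by 1 cell in AFX6.

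The endoderm factors were rare. Sox17, an endoderm factor of the SOX family, was at 47.1 CPM in 5ar1 cell 20 and at 35.4 CPM in 5ar2 cell 74, and neither EpiSC line had a count. These 2 cells held 99.6% and 99.4% of the Sox17 counts of their lines, whose levels were 0.606 and 0.398 CPM. Gata6, a zinc finger factor of primitive and definitive endoderm, was at 36.8 and 21.1 CPM in AF32 cells 86 and 30 and at 9.21 CPM in 5ar2 cell 25, with no count in 5ar1 or AFX6. Its level was 0.849 CPM in AF32 and 0.104 CPM in 5ar2. Transcripts annotated on the opposite strand overlap Sox17 and Gata6, and Smart-seq2 does not mark strand, so reads of the overlapping parts cannot be assigned to one or the other.

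**Figure D3:**
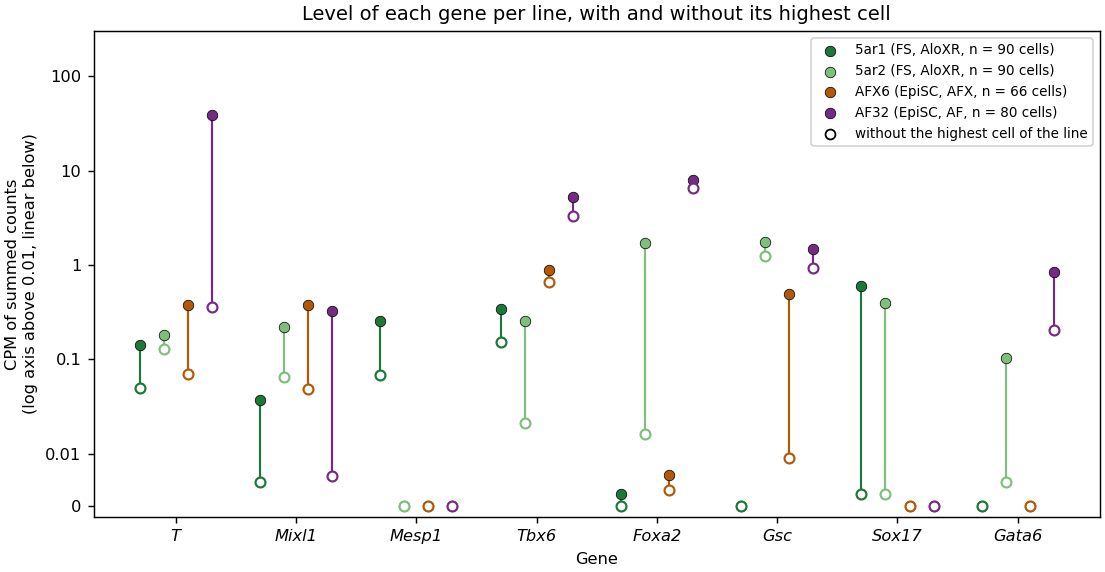
CPM of the summed counts of each line (filled points) and the same without the highest cell for that gene (open points); the axis is logarithmic above 0.01 and linear below, and points at 0 mean no count. T in AF32 falls from 39.1 to 0.357 CPM, while Foxa2 in AF32 moves from 7.92 to 6.614 CPM.

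Levels of different genes were compared per kilobase of exon. On that scale AF32 ranked T first (16.9 CPM per kb, through cell 70), then Foxa2 (3.34), Tbx6 (2.927), Gsc (1.155), Mixl1 (0.142) and Gata6 (0.130), with Mesp1 and Sox17 at 0. In 5ar2 the order was led by Gsc (1.387 CPM per kb) and Foxa2 (0.714, through cell 21), and the other factors were at 0.143 or less. AFX6 had Tbx6 (0.487) and Gsc (0.387) highest, and 5ar1 had Mesp1 (0.198) and Tbx6 (0.190) at nearly the same level. The leading factor was thus Gsc in 5ar2, Tbx6 in AFX6 and, through cell 70, T in AF32, where Foxa2 came next.

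EpiSC and FS lines were compared over summed counts with 2 lines in each group, by edgeR's quasi-likelihood test with Benjamini-Hochberg adjustment over 22606 genes. Of the 7 factors that passed the filter on low counts, 0 had an adjusted p under 0.05, against 0 of all genes tested (0%). An unadjusted p under 0.05 was reached by 3 factors, with T and Tbx6 higher and Sox17 lower in EpiSCs, and by 3636 genes in all (16.1%). The difference for T was 6.911 ± 2.4 (log2 fold change, EpiSC minus FS, ± SE, n = 2 lines per group, edgeR adjusted p = 0.278). Leaving out AF32 cell 70 lowered it to 1.198. Tbx6 differed by 3.35 ± 1.1 (edgeR adjusted p = 0.276), Mixl1 by 1.464 ± 1.2 (0.673), Foxa2 by 2.198 ± 3.35 (0.848), Gata6 by 3.00 ± 3.44 (0.781) and Gsc by 0.14 ± 2.646 (0.992). The sign for Gsc turned negative when 5ar1 (-0.83) or AF32 (-0.82) was left out. For Foxa2, Gsc and Gata6 the SE exceeded the difference, and the values of the FS and EpiSC lines overlapped. The Foxa2 difference rested on AF32, since AFX6 alone lay at 0.00601 CPM, below the FS mean of 0.847 CPM. That mean came almost wholly from 5ar2 cell 21, and 5ar1 was at 0.00232 CPM, below AFX6. Sox17 had no count in EpiSCs and was at least 115-fold higher in FS lines, taken against 3 counts over both EpiSC lines (edgeR adjusted p = 0.19). It passed the filter through the FS lines alone, so its difference was fixed by the filter. Mesp1 did not pass the filter.

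DESeq2, as another test of the same sums, called T and Tbx6 higher and Sox17 lower in EpiSCs, which was 3 of the 8 factors in its fit. In all it called 1529 genes higher and 1398 lower. Together these were 13.1% of the 22277 genes given an adjusted p, out of 30577 genes in the fit. The call of T rested on AF32 cell 70: without it DESeq2 called Tbx6 and Sox17 (2919 genes in all), and the log2 difference for T was 1.227 (DESeq2 adjusted p = 0.554). Sox17 had no EpiSC count and rested on 1 cell in each FS line. limma on the mean CPM per cell called 3 genes higher and 3 lower and 0 of the 4 factors it tested, and on the deposited sctransform values it called 0 genes. Both EpiSC lines lay above both FS lines for T, Mixl1 and Tbx6, a pattern seen for 21.5% of the genes tested, and both FS lines lay above both EpiSC lines for Sox17, as for 26.8% of genes. Without the highest cell of each line, the EpiSC-high order held for Tbx6 and not for T or Mixl1. T was then at 0.0703 CPM in AFX6 and 0.128 CPM in 5ar2. Mixl1 was at 0.0488 CPM in AFX6, 0.0057 CPM in AF32 and 0.0651 CPM in 5ar2.

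Between the EpiSC lines, 4 factors were at least 4-fold higher in AF32 than in AFX6, as were 11.6% of the genes tested. These differences have no replicate check, and the intervals given treat each read as independent and leave out the spread between cells. T was 102-fold higher (95% interval 86.0 to 122.9), and from 0.0703 to 0.357 CPM without the highest cell of each line. Tbx6 was 6.02-fold higher (5.32 to 6.829). Foxa2 gave a ratio of 1316 with an interval of 364 to 10870, since AFX6 held 2 counts. Gata6 was at least 94.1-fold higher, against 3 counts in AFX6. Gsc was 2.99-fold higher (2.501 to 3.59). Without the highest cell of each line it was at 0.920 CPM in AF32 and 0.00917 CPM in AFX6, and 5 factors were then past 4-fold. Mixl1 gave a ratio of 0.861 with an interval that includes 1 (0.663 to 1.116). No factor was at least 4-fold lower in AF32, against 8.9% of genes.

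The FS lines, which shared a medium, also differed from each other. At least 4-fold differences were found for 5 factors, as for 12.4% of genes in either direction. Of these, 4 were higher in 5ar2: Mixl1 (5.88-fold, 3.44 to 10.7), Gsc (at least 253-fold), Gata6 (at least 14.9-fold) and Foxa2 (a ratio of 729 with an interval of 131 to 28840, on 1 count in 5ar1). Without the highest cell of each line, 2 of them, Mixl1 and Gsc, remained past 4-fold. Mesp1 was at least 36.7-fold lower in 5ar2. T, Tbx6 and Sox17 were within 4-fold of each other (ratios of 5ar2 to 5ar1 of 1.247, 0.750 and 0.657). Without the highest cell of each line, Tbx6 was past 4-fold lower in 5ar2, at 0.0210 CPM against 0.153 CPM in 5ar1.

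Most cells with a factor had 1 of them. Of the 52 kept cells with any factor at 5 CPM or more, 46 had 1, 5 had 2 and 1 had 3. The 6 cells with at least 2 were 4 of AF32 and 2 of 5ar2, and at 50 CPM no cell had more than 1. AF32 cell 47 held 3 factors, with Foxa2 at 106 CPM, Tbx6 at 44.8 CPM and Gsc at 42.9 CPM. AF32 cell 80 had Foxa2 (48.2 CPM) with Tbx6 (33.1 CPM), and AF32 cell 83 had Foxa2 (123 CPM) with Mixl1 (28.7 CPM). The remaining AF32 cell was cell 70, with T and Foxa2. In 5ar2, cell 21 had Foxa2 (131 CPM) with Gsc (9.50 CPM) and cell 19 had Gsc (33 CPM) with Mixl1 (13.7 CPM). Foxa2 was present in 5 of these 6 cells.

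For Foxa2 with Tbx6 in AF32, 2 cells held both, where the product of the shares gives 1.5. The other pairs with a shared cell had 1 such cell each, where the product gives 0.0778 to 0.65. Over pairs with both factors at 5 CPM in some cell of the line, a shared cell was found for 5 of 15 pairs in AF32, 2 of 21 in 5ar2, 0 of 6 in 5ar1 and 0 of 6 in AFX6. Pearson's r of log2(CPM + 1) over the 80 cells of AF32 ran from -0.07 to 0.36 for these 15 pairs, and in such sparse counts these values are a description. With at most 1 cell for all but 1 pair, these counts are too small to show either joint or separate expression.

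**Figure D4:**
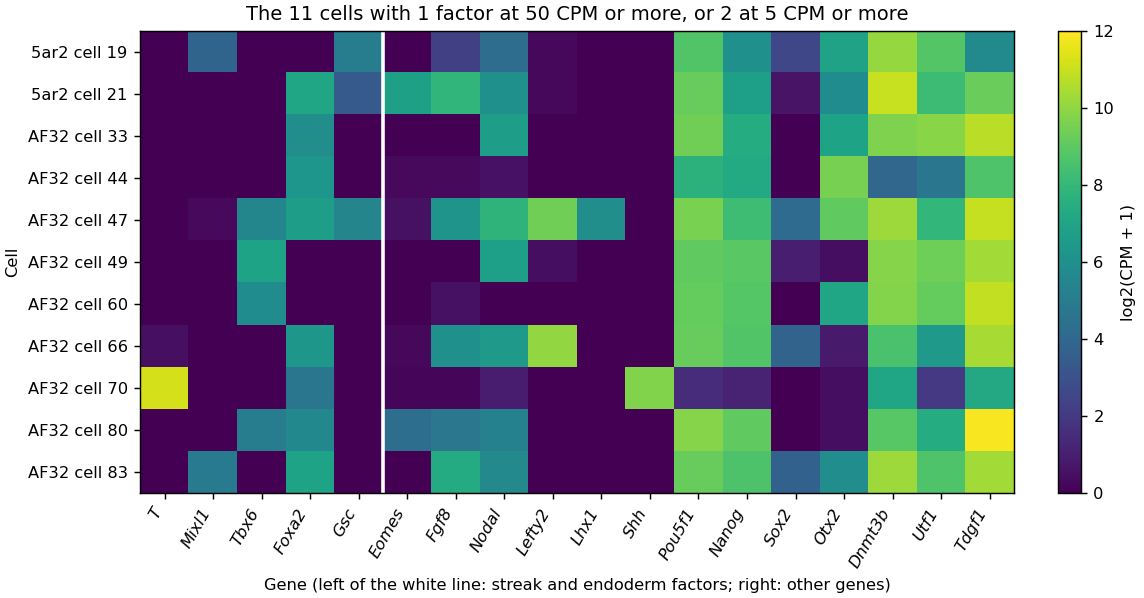
log2(CPM + 1) in the 11 cells with 1 factor at 50 CPM or more, or 2 at 5 CPM or more (rows), for the 5 factors they held and 13 other genes (columns). AF32 cell 70 has T and Shh and little Pou5f1 or Nanog, and the other 10 cells have 208 to 896 CPM of Pou5f1.

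Most cells with a factor also expressed Pou5f1 and Otx2, and in AF32 Nanog, whereas few reached 50 CPM of Sox2. Pou5f1 was at 50 CPM or more in 25 of the 26 AF32 cells with a factor (96.2%), as in 77 of all 80 (96.3%), and Nanog likewise in 25 of 26 (96.2%), as in 75 of 80 (93.8%). In 5ar1, 5ar2 and AFX6, all 6, 12 and 8 cells with a factor had at least 50 CPM of Pou5f1, and 6 of 6, 12 of 12 and 7 of 8 had Otx2 at that level. Nanog reached it in 3 of the 12 cells of 5ar2, as in 23 of all 90, and in 4 of the 8 cells of AFX6, as in 44 of all 66. In 5ar1 Nanog reached it in 1 of the 6 cells, as in 17 of all 90. Sox2 reached it in 1 of 6, 2 of 12, 0 of 8 and 2 of 26 such cells of 5ar1, 5ar2, AFX6 and AF32. Among all cells of these lines the numbers for Sox2 were 6 of 90, 7 of 90, 0 of 66 and 4 of 80. AF32 cell 44, with Foxa2 at 78.5 CPM, had Pou5f1 at 208 CPM and Dnmt3b at 14.6 CPM. AF32 cell 47 combined its 3 factors with Pou5f1 at 771 CPM, Otx2 at 536 CPM, the Nodal antagonist Lefty2 at 663 CPM and Lhx1, a factor of anterior streak and mesoderm, at 59.3 CPM. Lhx1 reached 50 CPM in 3 AF32 cells, all 3 with one of the factors, and in 2 cells of 5ar1, neither of which had one. Of the 9 AF32 cells with Lefty2 at 50 CPM or more, 3 had a factor, close to the share in the whole line, and the same held for 8 of the 25 cells with Fgf8.

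Other genes of the streak and its derivatives were counted from lists. Of 20 other streak and mesoderm genes, 16 had a row and 11 were tested, 0 were called, and their median log2 difference (EpiSC minus FS) was 1.602, where the median of all genes was 0.01. DESeq2 called 7 of the 16 higher and 3 lower, where it called 13.1% of the genes given an adjusted p in either direction. Nodal, the ligand that induces the streak, was at 5.46 and 5.32 CPM in the FS lines and at 49.0 and 94.7 CPM in AFX6 and AF32. Fgf8, a streak ligand, was at 66.3 CPM in AF32 and at 0.529 to 7.504 CPM elsewhere, and Lefty2 at 43.5 CPM in AF32 and at 0.288 to 1.392 CPM elsewhere. The receptor gene Pdgfra was at 2.00 CPM in AF32, all of it from 1 cell with 138.9 CPM, and at 0.0046 CPM or less elsewhere. Eomes, a T-box factor upstream of mesoderm and endoderm, ran the other way, with 61.3 and 48.2 CPM in the FS lines and 6.623 and 5.84 CPM in AFX6 and AF32. It reached 50 CPM in 0 of the 6 cells of 5ar1 with a factor at 5 CPM, where 37 of all 90 had it (41.1%), and in 5 of the 12 such cells of 5ar2 (41.7%), where 33 of all 90 had it (36.7%).

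Of 7 anterior streak and node genes, 6 had a row, 5 were tested and 0 were called, with a median of 0.81. DESeq2 called 3 of the 6 higher and 0 lower. Chrd, an organizer antagonist of BMP, was at 20.4 CPM in AF32 and 1.299 to 13.4 CPM elsewhere, and Shh was at 13.9 CPM in AF32 through cell 70. Of 11 other endoderm genes, 10 had a row, 7 were tested and 0 were called, with a median of -1.08. DESeq2 called 2 of the 10 higher and 2 lower. Gata4 and Sox7, partners of Gata6 and Sox17 in endoderm, were at 0.355 and 0.430 CPM, and 0.796 and 0.501 CPM, in 5ar1 and 5ar2, and EpiSC lines had 1 count of Sox7 in AFX6 and none of Gata4. In 5ar1 and 5ar2, 1 cell held 99.35% and 100% of the Gata4 counts, and 1 cell held 49.3% and 74.3% of the Sox7 counts. Lefty1, a Nodal antagonist, was at 4.89 and 10.7 CPM in FS lines, 687 CPM in AFX6 and 3818 CPM in AF32.

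Of the 8 pluripotency genes all 8 were tested and 0 were called, with a median of -0.38. Tdgf1, the Nodal co-receptor, was at 27.4 and 36.8 CPM in FS lines and at 839 and 1398 CPM in AFX6 and AF32, while the methyltransferase gene Dnmt3b was at 2243 and 1434 CPM and at 493 and 616 CPM. DESeq2 called 2 of the 8 higher and 3 lower, beside 13.1% of the genes given an adjusted p.

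Markers of other cell types were counted in the same way. The edgeR test called 0 of all 22606 genes, so 0 calls in a list do not set that list apart. Of 8 visceral endoderm genes 5 had a row and 0 were called, and the defining genes Afp and Ttr had none. The summed level of the 5 ranged from 0 to 63.8, 96.0, 91.7 and 119 CPM per cell in 5ar1, 5ar2, AFX6 and AF32. Among the AF32 cells with Foxa2, cell 44 had 89.7 CPM of Rbp4 and no count of Apoa1, Amn, Cubn or Dab2. Cell 33 had 59.4 CPM of Cubn and no count of Apoa1, Amn, Rbp4 or Dab2, and cell 47 had 34.65 CPM of Rbp4 and 27.29 CPM of Dab2. AF32 cell 49, which had no Foxa2 count, had 71.6 CPM of Rbp4. Over whole lines, Rbp4 was at 8.83 CPM and Cubn at 0.801 CPM in AF32. Of 7 neural, 5 germ cell, 6 trophoblast and 7 fibroblast genes, 6, 5, 6 and 6 had a row and 0 were called. The medians of the log2 difference (EpiSC minus FS) were -0.07 for the visceral endoderm list, 0.92 for the neural, 0.88 for the germ cell, 0.68 for the trophoblast and -1.17 for the fibroblast list. DESeq2 called 1 germ cell gene higher, 1 neural and 2 trophoblast genes lower and 0 of the visceral endoderm and fibroblast genes, beside 13.1% of the genes given an adjusted p. Among the neural genes, Tubb3 was at 335 CPM in 5ar1 and 12.2 to 130 CPM elsewhere. Prdm1, a germ cell gene that endoderm also expresses, was at 1.723 CPM in AF32, all from 1 cell with 124.4 CPM, and 0.00601 CPM or less elsewhere. Tfap2c, of the same list, was at 2.09 CPM in AFX6. In the trophoblast list Hand1 was at 23.5 CPM in 5ar1 and 0.261 CPM or less elsewhere, and Krt7 at 6.02 CPM in AF32. Of the fibroblast genes, Col1a1 was at 27.7 CPM in 5ar2, where 1 cell held 82.9% of its counts, and Col1a2 at 8.38 CPM in AF32. Their part in the values of the streak and endoderm factors was not tested.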

How the data were processed

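Cells were sorted into 96-well plates and libraries made with Smart-seq2. The authors deposited raw counts for each gene in each cell, and their notes name STAR 2.7.3a, GRCm38.p6 and featureCounts 2.0.0. A second deposited table holds the output of sctransform, used here as a score corrected for depth, for 23574 genes in 326 cells. Gene positions and exon lengths are from GENCODE M21.

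Lines and states came from the labels and media from the study's methods. CPM are counts per 1000000 of a cell's total, or of a line's sum. As in the study, cells with under 3000000 counts were left out (58), and no doublet caller was run, since 1 cell was sorted per well. No cells had identical counts (0 pairs). A count of 0 allows up to 3 counts. Intervals of shares cover the sampling of cells within a line. Intervals of summed counts and of ratios treat each read as independent, though reads carry no molecular identifiers and gather in few cells. They are therefore too narrow and leave out the spread between cells.

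The line is the replicate. Counts summed per line went into edgeR's quasi-likelihood fit (version 4.0.16, R 4.3.3) after TMM scaling and filterByExpr, which was checked on simulated data. No label says that lines were cultured or sorted in parallel, so p-values measure the spread between these lines. Among EpiSCs this spread includes the medium, since AFX6 and AF32 differ in XAV939. FS and EpiSC lines also differ in activin, Fgf2 and the inverse agonist of retinoic acid receptors, so state and medium cannot be told apart. Alternatives used DESeq2 1.42.0, limma 3.58.1 on log2(mean CPM + 1), other normalization, filters, depths and lines left out. Shares and intervals used Python 3.11.15 and scipy 1.17.1.

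All 10 factors are named, with, per list, the gene highest in any line, the gene with the highest ratio of AF32 to FS and any called gene. Genes correlated with a factor were to be named where it had 8 cells at 50 CPM, and none did. One gene that this rule names is not reported here. Any other gene was picked with its values known. The members and lists were chosen with earlier results of these data known.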

Additional observations from a re-analysis of the deposited data

Results flagged for a closer look

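Cells under 3000000 counts entered no comparison, and 5 values in them exceeded the limit of 3 counts that a count of 0 allows. AFX6 cell 83, with 892926 counts, held 29 counts of Foxa2 (32 CPM), where the 66 kept AFX6 cells held 2 counts together. AFX6 cell 12 held 24 counts of Tbx6 (8.48 CPM) and AFX6 cell 38 held 4 counts of T (2.319 CPM). Gsc had 9 counts in 5ar2 cell 18 (3.27 CPM) and 10 counts in AF32 cell 67 (5.52 CPM).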

How the results depend on the processing

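The number of genes called between EpiSC and FS lines was 0 under 12 of 15 alternatives and changed with the test: DESeq2 called 2927 genes, 3 of them streak and endoderm factors and 26 in the other lists, without AF32 cell 70 it called 2919 genes, 2 of them factors and 22 in the lists, and limma on the mean CPM per cell called 6 genes, 1 of them in the lists. With a line left out the other line of its group was alone and was assumed to vary like the others, and the counts of called genes, of called factors and of called list genes stayed at 0. The EpiSC minus FS difference stayed positive for T (log2 1.198, without AF32 cell 70, to 7.90) and Tbx6 (1.349 to 4.12) under all 15 alternatives, and for Mixl1 (0.69 to 3.25), Foxa2 (0.94 to 3.20) and Gata6 (0.77 to 4.01) under 14, 13 and 11. For Foxa2 and Gata6 no fitted value is given where a group held 3 counts or fewer, as without AF32. AFX6, then the only EpiSC line, had Foxa2 at 0.00601 CPM and no count of Gata6. Both lay below the FS means of 0.847 and 0.0517 CPM, so the positive sign for these 2 factors rested on AF32. Those means in turn rested on 5ar2 cells 21 and 25, with 99.05% and 95.56% of the 5ar2 counts of Foxa2 and Gata6. In 5ar1, Foxa2 was at 0.00232 CPM, below AFX6, and Gata6 had no count. The Gsc difference ran from -0.83 (without 5ar1) and -0.82 (without AF32) to 0.71 (without AFX6). The median of all genes, 0.01 with all lines, was -0.21 without AF32 and -0.17 without AFX6. The share of AF32 cells with a factor, 10.0% at 50 CPM, was 21.3% at 20 CPM and 33% at 5 CPM, and cells with 2 or more factors numbered 0 at 50 CPM and 4 at both 20 and 5 CPM. Depth thresholds, thinning to 1000000 counts and leaving out cells with few genes gave 8.33 to 12.7%. Without the highest cell of each line, 2 in place of 4 factors were 4-fold higher in 5ar2 than in 5ar1. No paired analysis was possible because the numbers in the labels number the cells of each line, whereas the replicate in the fits is the line. At least 87.3% of the counts came from 1 cell for T in AF32, Foxa2, Gata6 and Tbx6 in 5ar2, Gsc in AFX6, both Sox17 values and Mixl1 in 5ar1, AFX6 and AF32. Both alternatives without AF32 cell 70 were chosen after seeing the data.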
